A study of Mus musculus with 12 samples.

Results

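The nuclear-encoded subunits of the respiratory chain were followed across 4 stromal populations sorted from mouse bone and bone marrow. They were taken as the protein-coding genes whose symbols in GENCODE M21 begin with Ndufa, Ndufb, Ndufc, Ndufs or Ndufv and a number, with Uqcr, with Cox4 to Cox8 or with Atp5, or are Sdha to Sdhd, without pseudogenes. This gave 84 of the 49585 genes counted, 37 of complex I, 4 of complex II, 8 of complex III, 18 of complex IV and 17 of complex V. Another 10 genes in the files matched by symbol but were not annotated as protein-coding and were left out. Genes were tested with at least 0.5 CPM (counts scaled to library size) in at least 1 library, which 82 of the 84 subunit genes reached, while Cox7b2 and Cox8b did not. Atp5s and Cox7a2l entered by name although they are not classical subunits, and Ndufa4, which is now placed with complex IV, was counted with complex I by its symbol.

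RNA came from wild-type C57BL/6 male mice aged 8 to 10 weeks, with 2000 sorted cells per library and 3 libraries per population, 12 in all. Each population was negative for the blood and vessel markers CD45, Ter119 and CD31. Itga8+ MSCs were sorted as Itga8+Alcam+Sca-1- cells, Itga8- BLCs (bone-lining cells, which the labels call osteoblasts) as Itga8-Alcam+Sca-1- cells, and Sca-1+ MSCs as Alcam-Sca-1+ cells. These 3 populations came from collagenase-digested bone fragments, whereas CD51+CD140a+ MSCs came from flushed marrow digested with Accumax, so that the preparation and that population cannot be told apart. Nothing in the sources used here ties a library to 1 mouse, so p-values measure the spread between libraries, which may be partly technical.

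The respiratory chain sits in the inner mitochondrial membrane. Complex I takes electrons from NADH and complex II from succinate, ubiquinone carries them to complex III and cytochrome c to complex IV, which reduces oxygen, and complex V, the ATP synthase, uses the proton gradient that complexes I, III and IV build. Most subunits are encoded in the nucleus and a few in mitochondrial DNA. In the skeletal lineage, osteoblasts use glycolysis as well as respiration, and several subunits exist as isoforms that are known from muscle, testis or oxygen-poor tissue.

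Many respiratory chain promoters carry sites for NRF1 and for the ETS factor GABPA, named nuclear respiratory factors for this reason. RefSeq promoters (GRCm38.p6, 250 bases before to 50 bases after the start) were found for 66 of the 84 genes by symbol. The letters GCGCANGCG, the core of the NRF1 motif, stood on either strand in promoters of 20 of these 66 genes (30.3%) and of 7.03% of all 27025 genes in the table. The letters CCGGAAG, the core of the ETS motif, stood in 16 of the 66 (24.2%) and in 9.93% of all genes, and 6 of the 66 (9.09%) held both, compared with 1.49% of all genes. A match is a description of the letters, not a bound site. The 250 bases before the start are shown, 5′ to 3′ on the strand of the gene, for 4 genes that hold both motifs and for Atp5b, the most highly counted subunit gene, in which neither was found. Capitals mark the matches, which for a motif on the opposite strand read as its reverse complement, and in Cox6a1 matches on both strands overlap.
Atp5h, chr11:115419920-115420169, minus strand: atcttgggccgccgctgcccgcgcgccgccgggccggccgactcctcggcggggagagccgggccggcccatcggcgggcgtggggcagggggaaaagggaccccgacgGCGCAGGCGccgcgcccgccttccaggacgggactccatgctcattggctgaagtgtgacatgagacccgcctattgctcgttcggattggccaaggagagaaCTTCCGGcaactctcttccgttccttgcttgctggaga
Atp5l, chr9:44920743-44920992, minus strand: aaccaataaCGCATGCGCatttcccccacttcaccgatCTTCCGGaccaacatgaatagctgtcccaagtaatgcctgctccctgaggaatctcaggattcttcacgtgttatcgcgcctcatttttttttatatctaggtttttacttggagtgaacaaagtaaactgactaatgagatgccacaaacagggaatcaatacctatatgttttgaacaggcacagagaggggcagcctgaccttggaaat
Cox6a1, chr5:115348959-115349208, minus strand: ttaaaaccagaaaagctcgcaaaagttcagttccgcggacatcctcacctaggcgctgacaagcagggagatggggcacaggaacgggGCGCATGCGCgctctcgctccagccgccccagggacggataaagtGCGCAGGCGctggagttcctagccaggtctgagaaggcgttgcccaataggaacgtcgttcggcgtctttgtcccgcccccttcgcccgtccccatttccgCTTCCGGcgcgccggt
Sdhd, chr9:50603850-50604099, minus strand: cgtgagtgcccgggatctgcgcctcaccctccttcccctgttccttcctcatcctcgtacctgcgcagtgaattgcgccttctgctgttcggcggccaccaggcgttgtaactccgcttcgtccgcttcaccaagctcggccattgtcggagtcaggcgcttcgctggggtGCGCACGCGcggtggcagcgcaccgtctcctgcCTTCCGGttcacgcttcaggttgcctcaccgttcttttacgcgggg
Atp5b, chr10:128083057-128083306, plus strand: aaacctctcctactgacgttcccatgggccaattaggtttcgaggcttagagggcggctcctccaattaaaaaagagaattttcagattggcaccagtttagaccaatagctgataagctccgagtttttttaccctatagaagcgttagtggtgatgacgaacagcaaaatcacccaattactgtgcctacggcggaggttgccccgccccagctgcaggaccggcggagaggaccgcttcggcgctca

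Before the comparisons, the libraries were compared with each other. Counts on genes came to 17580677 to 31332475 per library, and the 84 genes took 0.388% to 1.57% of them, most in Itga8+ MSC replicate 2 (1.57%) and Itga8- BLC replicate 3 (0.969%). Those libraries stood apart from the others of their own population. Itga8+ MSC replicate 2 also held 696 CPM of 8 osteoblast markers, against 6959 and 7974 in replicates 1 and 3, and 1962 CPM of 7 erythroid markers, against 148 to 636 in the other 11 libraries. Its 9 myeloid and lymphoid markers summed to 11835 CPM, against 883 to 6495 elsewhere. Itga8- BLC replicate 3 held 36803 CPM of the osteoblast markers, against 84548 and 114891 in replicates 1 and 2. Over 8 osteoclast markers the sums were highest in the same 2 libraries, at 643 and 845 CPM against 149 to 336 in the other 10. Ctsk supplied most of each, while Calcr was at 0 in all 12 libraries, and the part of these cell types in the levels of the subunit genes was not tested. Of the sorted markers, Itga8, Ly6a and Alcam stood mostly as labelled. The genes for CD51 and CD140a are not given singly, so the label of that sort was not checked here. The list of 5 population markers summed to 1473 to 1806 CPM in Sca-1+ MSCs and to 934 to 1099 CPM in CD51+CD140a+ MSCs. Between these populations 1 of the 5 was called higher and 1 lower in Sca-1+ MSCs. Itga8 had 35.2 to 199 CPM in Itga8+ MSCs and 53.1 to 82.9 CPM in CD51+CD140a+ MSCs, against 0.398 to 4.17 in the other populations, and Ly6a, which encodes Sca-1, had 611 to 658 CPM in Sca-1+ MSCs and at most 35.7 elsewhere. Bglap, an osteoblast marker, had 1175 to 6980.4 CPM in Itga8- BLCs and at most 14.95 elsewhere. Alcam had 1.29 to 5.81 CPM in the 2 populations sorted for it and at most 0.221 in the others. In such bulk samples, fewer cells of a type and less RNA per cell cannot be told apart.

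The subunit genes varied together between libraries of the same population. For each gene and library, the deviation of log2(CPM + 0.5) from the mean of the 4 population means was computed, and the median was taken over the 82 genes. It was -0.13, 1.96 and -0.52 in replicates 1, 2 and 3 of Itga8+ MSCs, and 0.25, -0.38 and 1.32 in those of Itga8- BLCs. In Sca-1+ MSCs it was -0.46, -0.44 and -0.10, and in CD51+CD140a+ MSCs -0.55, -0.02 and -0.77. The 10 libraries other than Itga8+ MSC replicate 2 and Itga8- BLC replicate 3 therefore lay between -0.77 and 0.25. Of the 82 genes, 71 were highest in Itga8+ MSC replicate 2, 7 in Itga8- BLC replicate 3, 2 in Sca-1+ MSC replicate 3, and 1 each in CD51+CD140a+ MSC replicates 2 and 3.

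**Figure D1:**
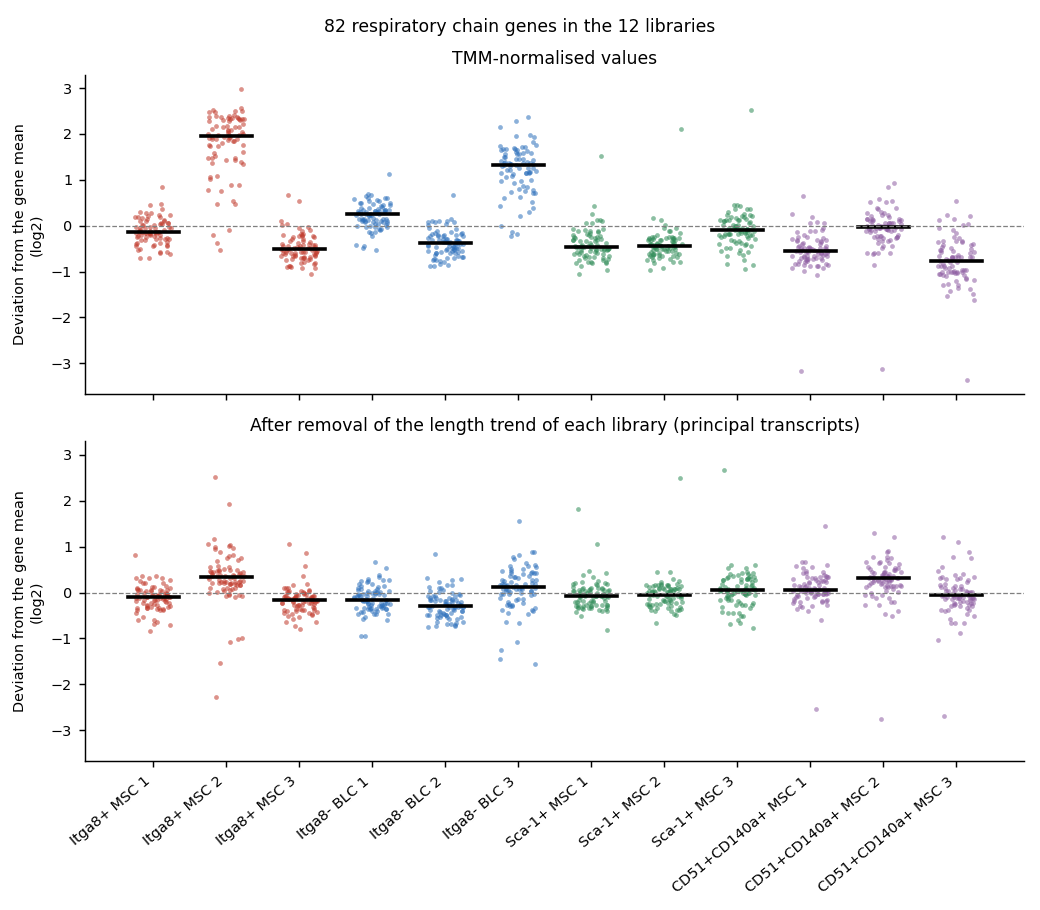
Each point is 1 of the 82 respiratory chain genes in 1 library, as the deviation of its log2 level from the mean of that gene, and bars are medians over the genes. In the upper panel the median reaches 1.96 in Itga8+ MSC replicate 2 and 1.32 in Itga8- BLC replicate 3; after removal of the trend with principal transcript length (lower panel) all 12 medians lie between -0.30 and 0.34.

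At the median the shift was smaller in genes with longer transcripts, with exceptions among single genes. Most subunit transcripts are short: the principal transcript, the one that APPRIS marks as the main protein-coding form, had a median of 772.5 bases over the 82 genes and was under 1000 bases in 53 of them, while the median over other protein-coding genes was 2477 bases. Levels in Itga8+ MSC replicate 2 were a median of 5.41 times the mean of replicates 1 and 3. The ratio was 6.60 over the 24 genes under 600 bases and 1.17 over the 7 genes of 2000 bases or more, where it ran from 0.889 to 6.51 and passed 2 in 3 genes. These 3 were Ndufb2 (2413 bases) at 6.51, Atp5g1 (2675.5 bases) at 5.67 and Ndufa10 (2020 bases) at 2.65. In Itga8- BLC replicate 3 the corresponding ratios to the mean of replicates 1 and 2 were 2.62 over all 82 genes, 3.21 under 600 bases and 1.44 from 2000 bases. Ndufa1, a small accessory subunit of complex I with a principal transcript of 419 bases, had 28.1, 169 and 20.2 CPM in the Itga8+ MSC replicates 1 to 3 and 51.5, 33.3 and 168 CPM in those of Itga8- BLCs. Sdha, the catalytic subunit of complex II with 2900 bases, had 314, 280.1 and 288 CPM in Itga8+ MSCs and 281, 308 and 272 CPM in Itga8- BLCs. Ndufa1 was thus highest in both standout libraries, while Sdha was not, unlike Ndufb2 and Atp5g1 among the long genes.

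Other genes of the same length moved in the same way. In Itga8+ MSC replicate 2 the median deviation of subunit genes under 600 bases was 2.18 and that of the 68 other protein-coding genes of this length 2.27. In the next longer classes, of 18 and 19 subunit genes, the values were 2.09 and 1.94 and then 1.91 and 1.53. Among longer genes the medians differed more, with 1.40 against 0.91 over 14 subunit genes and, from 2000 bases, 0.48 against -0.63 over 7. This last class has no upper limit, so the 2 sets in it are unlike in length. Its subunit genes end at 3171 bases, while other genes of 4000 bases and over had a median of -1.23 in Itga8+ MSC replicate 2. In Itga8- BLC replicate 3 the values under 600 bases were 1.56 for subunit genes and 1.67 for others, and from 2000 bases 0.60 and -0.38. The 83 cytosolic ribosomal protein genes, which are also short, had medians of 2.14 and 2.19 in these 2 libraries, and the 77 mitochondrial ribosomal protein genes 1.61 and 0.85. Why transcripts of different length were counted unequally was not tested.

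**Figure D2:**
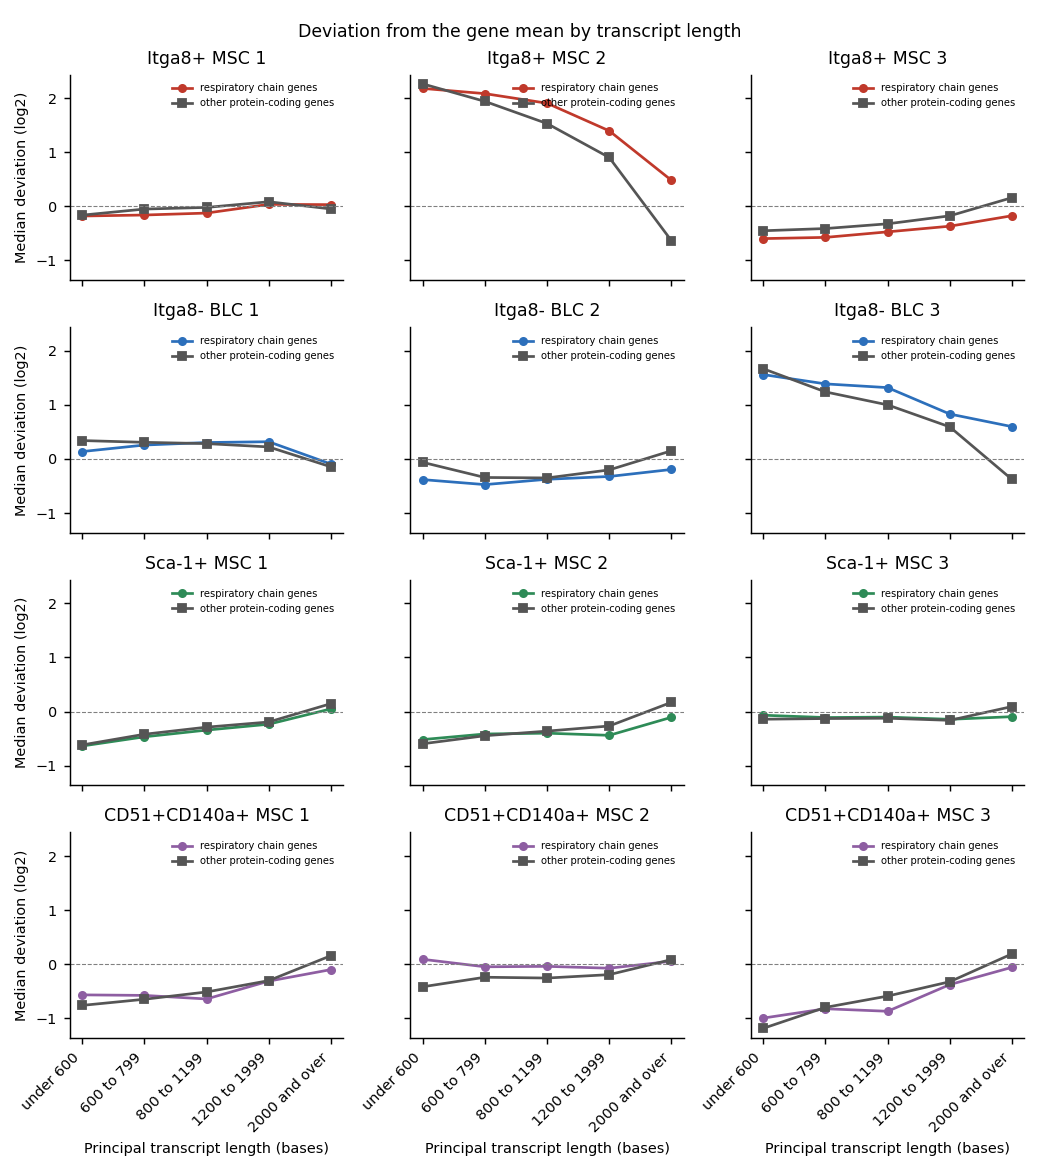
Median deviation from the gene mean (log2, vertical axis) in 5 classes of principal transcript length (bases, horizontal axis), 1 panel per library, for respiratory chain genes (coloured circles) and other protein-coding genes (grey squares). Short genes of both sets are high in Itga8+ MSC replicate 2 and Itga8- BLC replicate 3, and the sets differ most in these libraries at 2000 bases and over. That class has no upper limit and its subunit genes end at 3171 bases, so the sets are unlike in length there.

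The populations were then compared in pairs, with each subunit gene judged first on normalised counts and then against the length trend of its library. A fit of the 12 libraries by the quasi-likelihood test of edgeR covered 18648 genes, and a gene was called where its Benjamini-Hochberg adjusted p (FDR) was below 0.1 and its fold exceeded 2. The trend was removed in 2 ways, with the length of the union of exons over the same 18648 genes, and, as an alternative added after the data had been seen, with the principal transcript over 15002 protein-coding genes. All 6 comparisons draw on the same 4 groups of libraries and so share samples.

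Between Itga8+ MSCs and Itga8- BLCs, the 2 populations with the standout libraries, none of the 82 genes was called. Over all genes 1.66% were called higher and 2.16% lower in Itga8+ MSCs. By edgeR, 3 of the 82 had an unadjusted p under 0.05, and DESeq2 called 1. The median log2 fold change was 0.31 over the subunit genes and 0.08 over all genes, and it was -0.24 without the 2 standout libraries. With the trend removed none was called by either length, where 4.9% and 6.97% of all genes were called in either direction.

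Relative to Sca-1+ MSCs, Itga8+ MSCs had 10 subunit genes called higher and 1 lower, where 12.9% of all genes were called higher and 8.89% lower. The 10 were Atp5f1, Ndufa4, Ndufa3, Cox6b2, Uqcrc2, Cox6a2, Cox5a, Atp5g1, Cox8c and Ndufs8, and the 1 lower was Ndufa4l2. Of these, Cox6a2 and Cox8c reached 0.5 CPM only in Itga8 libraries, Cox8c in Itga8+ MSC replicate 2 alone. The filter thus let them in through a group where they were high, and their calls are no separate evidence. The share called higher, 10 of 82, was near the background, although the median log2 fold change, 1.19, lay above that of all genes, 0.16. Without Itga8+ MSC replicate 2 and Itga8- BLC replicate 3 the median was 0.023 and only Ndufa4l2 was called. With the trend removed, 6 genes were called by exon length (background 22.3%) and 4 by principal transcript (background 24.6%), and the medians were 0.74 and 0.05.

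Against CD51+CD140a+ MSCs, Itga8+ MSCs had 22 subunit genes called higher and none lower, with backgrounds of 21.2% and 14.3%. From complex I these were Ndufa8, Ndufb5, Ndufc1, Ndufb6, Ndufa4l2 and Ndufs8, from complex II Sdhd, and from complex III Uqcr10 and Uqcrq. Complex IV gave Cox5b, Cox6a1, Cox6a2, Cox4i1, Cox5a, Cox7a2, Cox8c and Cox7a2l, and complex V Atp5c1, Atp5f1, Atp5d, Atp5g1 and Atp5o. Cox6a2 and Cox8c had passed the filter only through Itga8 libraries, Cox8c through Itga8+ MSC replicate 2 alone, so these calls are no separate evidence. The 22 of 82 stood near the background, and the median log2 fold change was 1.31 over the subunit genes and 0.18 over all genes. Without the same 2 libraries the median was 0.12 and 2 of the 22, Ndufa4l2 and Cox6a2, were called. With the trend removed, 11 genes were called by exon length (background 35%) and 6 by principal transcript (background 35.1%), and the medians were 0.83 and -0.11. The 13 immediate early and stress genes summed to 20947 to 28588 CPM in CD51+CD140a+ MSCs and to 10751 to 15009 CPM in the other 9 libraries, and 7 of them were called lower in Itga8+ MSCs. Their part in the comparisons with that population was not tested.

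With all libraries Itga8- BLCs had smaller medians in the corresponding comparisons, an order that turned without the 2 standout libraries. Against Sca-1+ MSCs 9 subunit genes were called higher and 1 lower (backgrounds 14.5% and 11.9%), with a median of 0.89, and against CD51+CD140a+ MSCs 14 were called higher and none lower (backgrounds 20.4% and 14.9%), with a median of 1.00. The genes called higher in both were Cox4i2, Atp5e, Atp5d, Uqcrfs1, Cox8c and Atp5g2, of which Cox8c had passed the filter through Itga8+ MSC replicate 2 alone. Against Sca-1+ MSCs alone Ndufa3, Uqcrc2 and Atp5b were added and Ndufa4l2 was lower, and against CD51+CD140a+ MSCs alone Atp5c1, Ndufa1, Cox6a2, Ndufa4l2, Cox4i1, Uqcrq, Atp5g1 and Cox7a2l were added. Without the 2 libraries, which leaves 2 per Itga8 population, the medians were 0.29 and 0.37, above the 0.023 and 0.12 of Itga8+ MSCs in the same fit. The calls were 2 higher with 1 lower and 9 higher with 1 lower, and the share of all genes called in that fit is not given here. With the trend of exon length removed, 7 and 11 genes were called (backgrounds 27.3% and 35.7%), with medians of 0.51 and 0.59. With that of principal transcripts removed, 4 and 6 were called (backgrounds 29.9% and 36.5%), with medians of -0.04 and -0.20.

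Sca-1+ MSCs and CD51+CD140a+ MSCs, which hold neither standout library, differed in 2 of the 82 genes. Ndufa4l2 was called higher and Cox6b2 lower in Sca-1+ MSCs, where 11.2% of all genes were called higher and 9.3% lower. The median log2 fold change over the 82 genes was 0.13, and the middle 50% of them lay between -0.08 and 0.28. With the trend removed, the same 2 genes were called by exon length (background 22.2%), and Ndufa3 was called lower in addition by principal transcript (background 25.1%).

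**Figure D3:**
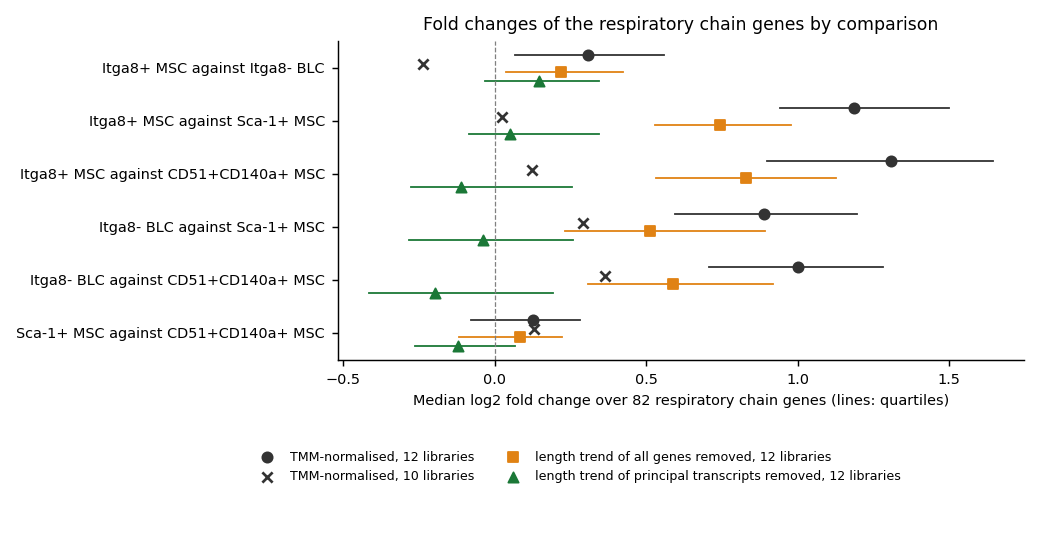
Median log2 fold change over the 82 respiratory chain genes (horizontal axis) in the 6 comparisons, with lines from the lower to the upper quartile; crosses are medians without Itga8+ MSC replicate 2 and Itga8- BLC replicate 3 and have no line. In the 4 comparisons of an Itga8 population with Sca-1+ or CD51+CD140a+ MSCs the medians are 0.89 to 1.31 on normalised counts and -0.20 to 0.05 after removal of the trend with principal transcripts.

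Complex I is built of core subunits, among them Ndufs1 and Ndufv1, which carry the electrons, and of accessory subunits around them. Ndufs1, which binds iron-sulphur clusters, had 98.1, 83.7 and 90.3 CPM in Itga8+ MSCs, 86.2, 83.7 and 82.4 in Itga8- BLCs, 99.2, 105 and 122.9 in Sca-1+ MSCs and 109, 99.4 and 97.6 in CD51+CD140a+ MSCs. It was not raised in the standout libraries and passed both thresholds in no comparison. Of the accessory subunits, Ndufa3 had 6.14, 6.76 and 7.21 CPM in Sca-1+ MSCs and 11.1, 24.1 and 8.73 in CD51+CD140a+ MSCs. These libraries did not overlap, and the log2 fold change of Sca-1+ over CD51+CD140a+ MSCs was -1.13 (SE 0.70, FDR = 0.344 by edgeR) on normalised counts and -1.38 (SE 0.27, FDR = 0.0022 by edgeR) with the trend of principal transcripts removed. Ndufa8, another accessory subunit, had 77.4, 255 and 53.8 CPM in Itga8+ MSCs and 34.9, 46.7 and 29.4 in CD51+CD140a+ MSCs. It was called there at a log2 fold change of 1.798 (SE 0.54, FDR = 0.0259 by edgeR) in the fit of 12 libraries, but at 0.86 (FDR = 0.0659 by edgeR) without the 2 standout libraries it passed the FDR and not the fold, nor did it pass the fold with the trend of principal transcripts removed, at 0.48 (FDR = 0.0583 by edgeR).

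Ndufa4l2, a relative of Ndufa4 that is induced by hypoxia-inducible factor in other cells, was called in 5 of the 6 comparisons, more than any other subunit gene on normalised counts. It lies at chr10:127514967-127517154 on the plus strand (GRCm38), and 2.92% of its exon bases overlap Shmt2. In Sca-1+ MSCs it had 42.4, 64.6 and 85.7 CPM, and in CD51+CD140a+ MSCs 1.17, 1.23 and 0.966 CPM. The sum of 6 endothelial markers was also highest in Sca-1+ MSCs, at 75.005 to 110 CPM against 10.3 to 32.5 CPM in the other 9 libraries, and in Sca-1+ MSCs Tek alone supplied 56.2 to 93.3 CPM, and the part of these markers in the levels of Ndufa4l2 was not tested. Itga8+ MSCs lay between them with 26.6, 20.5 and 21.5 CPM, as did Itga8- BLCs with 15.5, 15.6 and 40.7 CPM. The 2 Itga8 populations overlapped each other, and no library of either overlapped Sca-1+ or CD51+CD140a+ MSCs. The log2 fold change was 5.83 (SE 0.50, FDR = 7.83e-06 by edgeR) for Sca-1+ over CD51+CD140a+ MSCs, 4.34 (SE 0.46, FDR = 4.07e-05 by edgeR) for Itga8+ MSCs over CD51+CD140a+ MSCs and 4.40 (SE 0.46, FDR = 3.72e-05 by edgeR) for Itga8- BLCs over them. Relative to Sca-1+ MSCs it was -1.49 (SE 0.41, FDR = 0.029 by edgeR) in Itga8+ MSCs and -1.43 (SE 0.41, FDR = 0.0275 by edgeR) in Itga8- BLCs. These 5 calls held without the 2 standout libraries and with either trend removed. When 1 library was left out in turn, the 3 calls over CD51+CD140a+ MSCs held in 12 of 12 fits and the 2 against Sca-1+ MSCs in 11 of 12. Without Sca-1+ MSC replicate 3 the latter were -1.23 (FDR = 0.117 by edgeR) in Itga8+ MSCs and -1.16 (FDR = 0.111 by edgeR) in Itga8- BLCs. Ndufa4 itself, with 24.4, 20.6 and 29.1 CPM in Sca-1+ MSCs and 34.2, 58.9 and 25.2 in CD51+CD140a+ MSCs, overlapped between these populations.

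Complex II, which also works in the tricarboxylic acid cycle, had the lowest median fold changes of the 5 complexes in the comparisons with Sca-1+ and CD51+CD140a+ MSCs on normalised counts. Sdha had 320.4, 291 and 281 CPM in Sca-1+ MSCs and 315, 326 and 329.7 in CD51+CD140a+ MSCs, close to its levels in the Itga8 populations given above. Its log2 fold changes in the 6 comparisons lay between -0.17 and 0.04, and none passed the FDR. Sdhc, a membrane anchor subunit whose principal transcript of 3171 bases is the longest of the 82, ran the other way. It had 18.003, 19.7 and 17.96 CPM in Itga8+ MSCs, 18.3, 23.1 and 29.8 in Itga8- BLCs, 28.0, 28.9 and 34.9 in Sca-1+ MSCs and 31.03, 39.0 and 30.3 in CD51+CD140a+ MSCs. Itga8+ MSCs lay below both MSC populations in every library, with a log2 fold change of -0.85 (SE 0.27, FDR = 0.0326 by edgeR) against CD51+CD140a+ MSCs, which is under 2-fold. With the trend of exon length removed it was -1.03 (FDR = 0.0101 by edgeR) and was called, and with that of principal transcripts it was -0.72 (FDR = 0.0965 by edgeR) and was not. Sdhb and Sdhd, the iron-sulphur and second anchor subunits, had 129.5, 345 and 95.5 CPM and 149.5, 390.1 and 115 CPM in Itga8+ MSC replicates 1 to 3, high in the standout library.

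The 8 genes of complex III include the core proteins Uqcrc1 and Uqcrc2 and the Rieske iron-sulphur protein Uqcrfs1. Uqcrc1, at 207 CPM per kilobase of principal transcript, had 381, 609 and 284 CPM in Itga8+ MSCs, 409, 289 and 446 in Itga8- BLCs, 312, 245 and 290.4 in Sca-1+ MSCs and 239.8, 346 and 256 in CD51+CD140a+ MSCs. It was called in no comparison. Uqcrc2 had 122, 202 and 82.02 CPM in Itga8+ MSCs and 133, 85.0 and 186 in Itga8- BLCs, all above the 68.1, 67.1 and 56.9 of Sca-1+ MSCs, and 82.6, 80.3 and 75.7 in CD51+CD140a+ MSCs. Over Sca-1+ MSCs its log2 fold change was 1.08 (SE 0.36, FDR = 0.062 by edgeR) in Itga8+ MSCs and 1.07 (SE 0.36, FDR = 0.0519 by edgeR) in Itga8- BLCs. Without the standout libraries it was 0.70 and 0.77, and with the trend of principal transcripts removed 0.66 and 0.69, past the FDR in each and under 2-fold. Uqcrfs1 had 96.6, 56.5 and 156 CPM in Itga8- BLCs, all above the 41.7, 38.3 and 40.1 of Sca-1+ MSCs, a log2 fold change of 1.36 (SE 0.47, FDR = 0.0573 by edgeR), and 0.94 (FDR = 0.0232 by edgeR) without the standout libraries. The call was lost with the trend of principal transcripts removed, at 0.77 (FDR = 0.0127 by edgeR), which is under 2-fold.

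In complex IV the ubiquitous subunits Cox4i1, Cox5a and Cox6a1 were highest in the standout libraries. Cox5a had 194 CPM in Itga8+ MSC replicate 2 and 113 CPM in Itga8- BLC replicate 3, against 20.9 to 67.6 CPM in the other libraries. Cox6a1 had 416 and 311 CPM in these libraries, against 37.9 to 80.8 CPM in the others. Cox4i1, at 226 CPM per kilobase of principal transcript, had 132, 520.1 and 95.6 CPM in Itga8+ MSCs, 198, 123.05 and 423 in Itga8- BLCs, 101, 106 and 117 in Sca-1+ MSCs and 71.2, 96.7 and 67.0 in CD51+CD140a+ MSCs. Itga8- BLCs lay above CD51+CD140a+ MSCs in every library, with a log2 fold change of 1.66 (SE 0.60, FDR = 0.0535 by edgeR), 1.04 (FDR = 0.012 by edgeR) without the 2 standout libraries and 0.36 (FDR = 0.113 by edgeR) with the trend of principal transcripts removed. Cox4i2, the isoform known from lung and from low oxygen, had 5.78, 6.12 and 12.9 CPM in Itga8- BLCs, above every other library, of which the 9 ranged from 2.02 to 4.60. Its log2 fold change in Itga8- BLCs was 1.70 (SE 0.43, FDR = 0.0162 by edgeR) over Sca-1+ MSCs and 1.69 (SE 0.43, FDR = 0.0113 by edgeR) over CD51+CD140a+ MSCs. Both calls held in 12 of 12 fits that left out 1 library and without the 2 standout libraries, but with the trend of principal transcripts removed the values were 0.76 and 0.46 and were not called.

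Cox6b2, an isoform best known from testis, was the only subunit gene called higher in CD51+CD140a+ MSCs on normalised counts. It had 2.40, 3.04 and 1.64 CPM there and 0.553, 0.610 and 0.468 CPM in Sca-1+ MSCs. Itga8- BLCs had 1.19, 0.602 and 1.798 CPM, and Itga8+ MSCs 1.04, 6.91 and 0.866 CPM, the 6.91 in the standout library. Sca-1+ MSCs lay below CD51+CD140a+ MSCs in every library, at a log2 fold change of -2.11 (SE 0.78, FDR = 0.0921 by edgeR), a call that held in 5 of 12 fits with 1 library left out, in which the value ran from -2.31 to -1.89. It was lost without any 1 library of these populations or without Itga8- BLC replicate 1, with an FDR of up to 0.236 by edgeR. With the trend of principal transcripts removed it was -2.40 (SE 0.48, FDR = 0.00289 by edgeR) and held in 12 of 12. With that trend removed Cox6b2 was also lower than in CD51+CD140a+ MSCs in Itga8+ MSCs, by -1.47 (SE 0.46, FDR = 0.0261 by edgeR), and in Itga8- BLCs, by -2.43 (SE 0.48, FDR = 0.00177 by edgeR), although the libraries of both Itga8 populations overlapped those of CD51+CD140a+ MSCs in CPM. Counts behind it were 10 to 133 per library. The 6 brown fat and adipocyte markers were also highest in CD51+CD140a+ MSCs, with sums of 2086 to 2360 CPM against 2.06 to 76.0 CPM elsewhere. Only 2 or 3 of the 6 were detected there, against up to 5 in Itga8- BLCs. Their part in the levels of Cox6b2 was not tested.

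The isoforms of heart and skeletal muscle were scarce. Cox6a2 had 12, 127 and 16 counts in Itga8+ MSCs, 19, 4 and 5 in Itga8- BLCs, 4, 2 and 0 in Sca-1+ MSCs and 1, 0 and 2 in CD51+CD140a+ MSCs. The ratio of its summed counts, scaled to library size, in Itga8+ over CD51+CD140a+ MSCs was 93.3 (95% exact counting interval 31.3 to 457), and replicate 2 supplied 127 of the 155 counts. The interval covers counting error only. Cox7a1 had at most 0.519 CPM in any library, and Cox8b, below the filter, at most 0.208 CPM. The summed level of 12 skeletal muscle markers was 26.8 to 65.7 CPM in Itga8+ MSCs, 41.8 to 110 in Itga8- BLCs, but 2.58 to 4.31 in the Sca-1+ and 6.25 to 9.83 in the CD51+CD140a+ population, with 7 to 10 of the 12 detected in the first 2 populations and 4 or 5 in the others, and Myh2 and Myh4 were each at 0 in 11 of the 12 libraries. Their part in the Cox6a2 levels was not tested. Cox8c, another isoform known from testis, had 5, 15 and 3 counts in Itga8+ MSCs, 5, 1 and 8 in Itga8- BLCs and 0 in the 6 other libraries. Cox8c reached 0.5 CPM in Itga8+ MSC replicate 2 alone (0.779 CPM), so it entered the tests through a library where it was high. Against a floor of 3 counts per library its mean in Itga8+ MSCs was at least 2.41-fold higher against Sca-1+ MSCs. The bound against CD51+CD140a+ MSCs was 4.14-fold. Both rest in large part on replicate 2, since replicates 1 and 3 had 0.247 and 0.173 CPM. The floor reached 0.166 CPM in Sca-1+ MSCs. For Itga8- BLCs these bounds were 1.56-fold and 2.67-fold, at 0.249, 0.0463 and 0.479 CPM in replicates 1 to 3. Replicate 3 supplied 8 of the 14 counts there, and replicate 2 lay below the floor.

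Complex V held the most abundant subunit genes. Atp5b, the catalytic beta subunit, stood at 524 CPM per kilobase of principal transcript, the highest of all 84, and Atp5a1, the alpha subunit, at 243. Together they took 15.3% to 34.5% of the counts on the 84 genes. Atp5b had 1302, 1585 and 950.4 CPM in Itga8+ MSCs, 1359.5, 1033 and 1717 in Itga8- BLCs, 678, 675 and 642 in Sca-1+ MSCs and 770.4, 622 and 714 in CD51+CD140a+ MSCs. All 6 libraries of the Itga8 populations lay above all 6 of the others. The log2 fold change over Sca-1+ MSCs was 0.94 (SE 0.27, FDR = 0.0362 by edgeR) in Itga8+ MSCs and 1.04 (SE 0.27, FDR = 0.0188 by edgeR) in Itga8- BLCs, and over CD51+CD140a+ MSCs 0.87 (FDR = 0.0326) and 0.96 (FDR = 0.0196). Only the second passed 2-fold. Without the 2 standout libraries these values were 0.79, 0.85, 0.71 and 0.77, and with the trend of principal transcripts removed 0.58, 0.69, 0.43 and 0.54, and each of the 8 passed the FDR but not the fold.

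Atp5a1 also separated the Itga8 populations from the others. It had 795, 813 and 600.5 CPM in Itga8+ MSCs, 686, 627 and 880.4 in Itga8- BLCs, 429, 415 and 402 in Sca-1+ MSCs and 541, 469 and 558 in CD51+CD140a+ MSCs, again with no overlap between the Itga8 populations and the others. Its log2 fold change over Sca-1+ MSCs was 0.83 (SE 0.24, FDR = 0.0362 by edgeR) in Itga8+ MSCs and 0.82 (SE 0.24, FDR = 0.0305 by edgeR) in Itga8- BLCs. Over CD51+CD140a+ MSCs it was 0.49 and 0.48, which missed the FDR. The myeloid and lymphoid markers separated the libraries along the same line, with sums of 2305 to 11835 CPM in the Itga8 populations and 883 to 1727 CPM in the others, and their part in the levels of Atp5b and Atp5a1 was not tested. Atp5d, the delta subunit of the central stalk, had 147, 102 and 320.1 CPM in Itga8- BLCs, 104, 253 and 82.4 in Itga8+ MSCs, but 67.3, 65.9 and 68.9 in Sca-1+ MSCs and 54.3, 62.9 and 60.4 in CD51+CD140a+ MSCs. In Itga8- BLCs it exceeded CD51+CD140a+ MSCs by a log2 fold change of 1.68 (SE 0.47, FDR = 0.0184 by edgeR), 1.07 (FDR = 0.00328 by edgeR) without the 2 standout libraries and 0.74 (FDR = 0.00748 by edgeR) with the trend of principal transcripts removed. Atp5f1, the stalk subunit b, had 161, 431 and 129 CPM in Itga8+ MSCs and 99.2, 85.6 and 106 in Sca-1+ MSCs, without overlap. Its log2 fold change of 1.31 (SE 0.45, FDR = 0.0684 by edgeR) was called, and 0.70 (FDR = 0.0453 by edgeR), with the trend of principal transcripts removed, was not.

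Of the subunit genes, 4 were called lower in Itga8- BLCs with the trend of principal transcripts removed and in neither of the other fits, and 1 of them also in Itga8+ MSCs. Atp5l, the small membrane subunit g, had 7.17, 5.28 and 20.2 CPM in Itga8- BLCs and 7.16, 11.5 and 6.63 in CD51+CD140a+ MSCs, which overlapped. Its log2 fold change was 0.36 (SE 0.72, FDR = 0.729 by edgeR) on normalised counts and -1.22 (SE 0.27, FDR = 0.0038 by edgeR) with the trend of principal transcripts removed. With exon length, which is 6443 bases for this gene against 544 for its principal transcript, it was 0.73, so that the direction turned with the measure of length. For Itga8+ MSCs against the CD51+CD140a+ population Atp5l was likewise called lower with the trend of principal transcripts removed, at -1.05 (SE 0.27, FDR = 0.00988 by edgeR), from 0.68 on normalised counts. Atp5s had 10.2, 5.65 and 10.7 CPM in Itga8- BLCs and 11.2, 12.007 and 15.7 in CD51+CD140a+ MSCs, without overlap, and its log2 fold change was -0.56 (SE 0.50, FDR = 0.424 by edgeR) on normalised counts and -1.17 (SE 0.31, FDR = 0.0114 by edgeR) with the trend removed. Ndufb8, an accessory subunit of complex I, had 51.6, 30.8 and 85.7 CPM in Itga8- BLCs and 41.0, 62.2 and 34.7 in CD51+CD140a+ MSCs, which overlapped, and moved from 0.28 to -1.02 (SE 0.19, FDR = 0.00111 by edgeR). Atp5k, the membrane subunit e, had 3.19, 2.87 and 12.8 CPM in Itga8- BLCs and 3.65, 3.20 and 5.90 in Sca-1+ MSCs, which overlapped, and was called lower in the former at -1.04 (SE 0.34, FDR = 0.0352 by edgeR), from 0.56 on normalised counts.

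**Figure D4:**
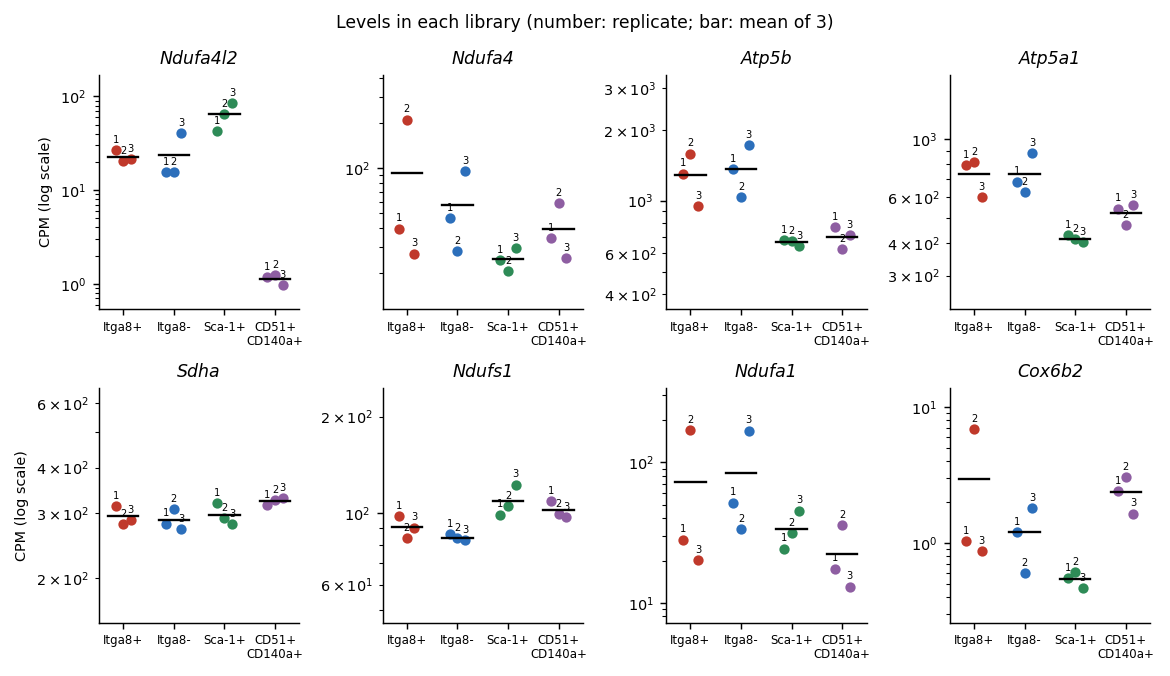
CPM (log axes, with ranges that differ between panels) of 8 respiratory chain genes in each library, numbered by replicate, with bars at the mean of 3. Ndufa4l2 spans 0.966 to 85.7 CPM and separates Sca-1+ from CD51+CD140a+ MSCs, Atp5b and Atp5a1 separate the Itga8 populations from the others, and Ndufa1 and Ndufa4 are highest in Itga8+ MSC replicate 2 while Sdha and Ndufs1 are not.

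Where 2 genes encode isoforms of 1 subunit, their ratio within a library does not depend on library scaling. The 6 pairs with enough counts gave 36 comparisons by the two-sided exact permutation test of 3 libraries against 3 on the log2 ratio per kilobase of exon, in which the smallest possible p is 0.1 (0.189 adjusted), so none could pass 0.05. Ndufa4l2 took 63.5%, 75.8% and 74.6% of the counts of Ndufa4l2 and Ndufa4 in Sca-1+ MSCs and 3.32%, 2.05% and 3.69% in CD51+CD140a+ MSCs. In Itga8+ MSCs it took 40.2%, 8.83% and 44.4%, and in Itga8- BLCs 25.1%, 35.7% and 29.9%. The share of 8.83% belongs to the standout library, in which Ndufa4 reached 212 CPM and Ndufa4l2 20.5. Cox6b2 took 7.19%, 6.11% and 6.52% of the counts of Cox6b2 and Cox6b1 in CD51+CD140a+ MSCs and 0.930% to 3.28% in the other 9 libraries. Itga8+ MSCs, at 2.79%, 3.28% and 2.90%, were next, with the standout library close to the others. Cox4i2 took 0.457% to 4.73% of its pair with Cox4i1 and Cox6a2 0% to 1.56% of its pair with Cox6a1. Of the genes for subunit c, which forms the rotor ring of the ATP synthase, Atp5g1 took 79.4% to 94.7% of the counts of Atp5g1 and Atp5g2, and Atp5g3 85.4% to 97.5% of those of Atp5g3 and Atp5g2. Atp5g2 had 8.61, 3.94 and 20.02 CPM in Itga8- BLCs, 1.77, 1.98 and 2.81 in Sca-1+ MSCs and 1.99, 2.29 and 2.16 in CD51+CD140a+ MSCs, and was called in Itga8- BLCs at log2 fold changes of 2.30 (SE 0.59, FDR = 0.0162 by edgeR) and 2.33 (SE 0.58, FDR = 0.0104 by edgeR). The call against Sca-1+ MSCs stayed, with the trend of principal transcripts removed, at 1.06 (SE 0.37, FDR = 0.0466 by edgeR) and held in 8 of 12 fits with 1 library left out, while that against CD51+CD140a+ MSCs was lost at 0.73 (SE 0.36, FDR = 0.134 by edgeR). Its counts are uncertain, since only 61.65% of its 50-base words occur in no other gene. Atp5g1 was called in Itga8+ MSCs over CD51+CD140a+ MSCs at 1.99 (SE 0.66, FDR = 0.0402 by edgeR), but 0.66 (FDR = 0.129 by edgeR) without the 2 standout libraries. It was still called with the trend of principal transcripts removed, at 2.03 (SE 0.70, FDR = 0.0402 by edgeR), which held in 10 of 12 fits with 1 library left out and not without Itga8+ MSC replicate 2 or CD51+CD140a+ MSC replicate 3, and without both standout libraries it was 0.48 (FDR = 0.242 by edgeR).

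**Figure D5:**
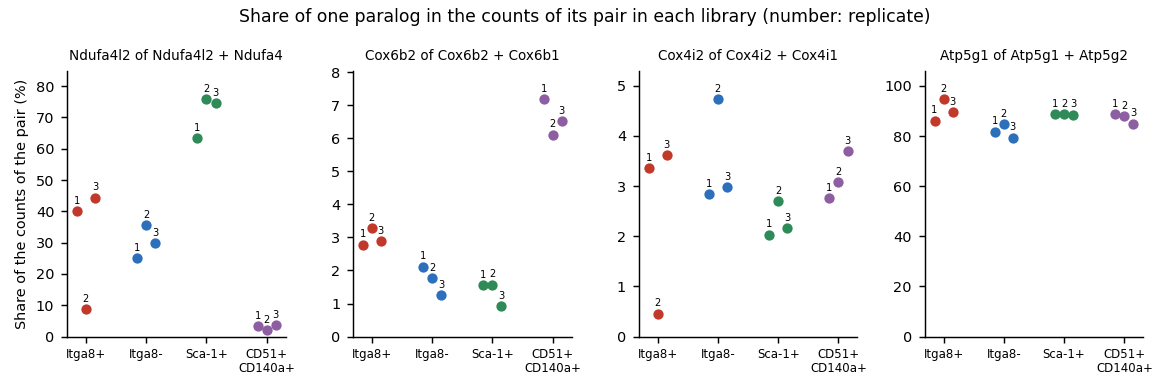
Share (%) of the first gene in the summed counts of an isoform pair, 1 point per library numbered by replicate, with axes that start at 0 and differ between panels. The share of Ndufa4l2 is at least 63.5% in Sca-1+ MSCs and at most 3.69% in CD51+CD140a+ MSCs, and that of Cox6b2 is highest, 6.11% to 7.19%, in CD51+CD140a+ MSCs.

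Related genes outside the symbol rule were read beside the subunits. Of the 13 subunits encoded in mitochondrial DNA, 10 were tested, mt-Nd4l and mt-Atp8 had no counts in any library, and all 13 took 0.0442% to 0.431% of the counts, again most in Itga8+ MSC replicate 2 and next in Itga8- BLC replicate 3 (0.251%). mt-Cytb, the mitochondrial subunit of complex III, had 158, 2061 and 269 CPM in Itga8+ MSCs. The mitochondrial genes were called in no comparison except for 2 of 10 higher in each Itga8 population over CD51+CD140a+ MSCs, near the 21.2% and 20.4% of all genes. The lists that follow are read against the backgrounds of 12.9% and 21.2% higher for Itga8+ MSCs over Sca-1+ and CD51+CD140a+ MSCs. Of 49 assembly factors of the chain, 1 was called higher in Itga8+ MSCs over Sca-1+ MSCs and 8 over CD51+CD140a+ MSCs, with medians of 0.71 and 0.67, so that neither count passed the background. The assembly factors had 0 higher and 3 lower, then 1 higher and 1 lower, once the trend of principal transcripts was removed, with medians of 0.19 and 0.13. Of 12 subunits and electron carriers outside the rule 3 and 5 were called higher, with medians of 1.05 and 1.38, and with that trend removed 1 was called lower than in Sca-1+ MSCs and 3 higher than in CD51+CD140a+ MSCs, with medians of 0.34 and 0.20. Of 18 enzymes of the tricarboxylic acid cycle other than complex II, 1 and 2 were called higher, with medians of 0.32 and -0.07, and with that trend removed 1 and 0, with medians of 0.12 and -0.24. Cyc1, the cytochrome c1 of complex III, had 156, 282 and 99.4 CPM in Itga8+ MSCs, 181, 112 and 248 in Itga8- BLCs, 87.9, 73.4 and 84.5 in Sca-1+ MSCs and 90.4, 91.1 and 90.4 in CD51+CD140a+ MSCs, and so lay higher in all 6 Itga8 libraries than in the 6 others. Of 13 regulators of mitochondrial biogenesis, 1 was called in each of 3 comparisons, higher in an Itga8 population. Nrf1 and Gabpa, whose motifs were searched above, had 27.9 to 54.7 CPM and 51.4 to 83.4 CPM over the 12 libraries and were called in no comparison.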

How the data were processed

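RNA of 12 libraries, 3 from each of 4 sorted populations, was sequenced by the authors after SMART-Seq v4 amplification. The authors deposited raw counts per Ensembl gene and library. Per the labels, reads were processed on mm10 with FastQC 0.11.7, Trimmomatic 0.38, HISAT2 2.1.0, SAMtools 1.9 and featureCounts 1.6.3, whereas the methods of the study name TopHat. The annotation release, use of strand and treatment of multiply mapped reads are not given in the sources used here. Of the 49585 identifiers, 259 were absent from GENCODE M21, which gave symbols, coordinates and lengths.

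Counts were fitted with the quasi-likelihood test of edgeR 4.0.16 in R 4.3.3 with TMM scaling, for all 12 libraries and 18648 genes that reached 0.5 CPM in any 1 library. A spline with 5 degrees of freedom of the deviation of each gene against log2 length, fitted per library on genes other than the subunits, entered as an offset in the 2 fits with a trend removed. For principal transcripts it was fitted on 8753 protein-coding genes of at least 10 CPM. That fit and the omission of Itga8+ MSC replicate 2 with Itga8- BLC replicate 3 were chosen after seeing the data. DESeq2 1.42.0, limma 3.58.1, other scaling, filters and thresholds, a replicate block and the omission of each library were tried as alternatives. A floor of 3 counts was 0.0819 to 0.180 CPM per library. Intervals and floors cover counting error only. Replicates differed by more than sampling noise, so none was counted as a copy. The subunit genes and gene lists were chosen with earlier results of these data known. Genes were named in full where called both with and without the length trend (at most 8 a comparison), in a reported isoform pair, among the 2 highest of a complex, among the 3 largest or smallest length-adjusted changes, or where a result was set beside them. Other genes were named after their values were seen. An item that this rule names is not reported here. Counts of 7 subunit genes are uncertain, since under 80% of their 50-base words were unique (Ndufa13, Ndufb6, Ndufs5, Uqcrb, Cox7c, Atp5g2 and Atp5o), and exons of 29 overlap another gene, which cannot be separated without strand.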

Additional observations from a re-analysis of the deposited data

How the results depend on the processing

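The number of subunit genes called depended on the settings, and some values turned direction. With the trend of principal transcripts removed, Atp5l, Ndufb8 and Atp5k were called lower in comparisons where they were positive on normalised counts, and without the 2 standout libraries Cox5b, Ndufc1 and Ndufb6, called higher in Itga8+ over CD51+CD140a+ MSCs, had -0.23, -0.17 and -0.14 with that trend removed, none of them called. Libraries with the same replicate number had correlations of -0.70 to 0.30, which gave no sign of pairing. They cannot exclude it, since values between the Itga8 populations follow the standout libraries, with 0.71 for Itga8+ MSC replicate 2 and Itga8- BLC replicate 3. With the replicate block, 2 genes were called for Itga8+ MSCs against Sca-1+ MSCs (11 without it), 7 against CD51+CD140a+ MSCs (22), 7 for Itga8- BLCs against CD51+CD140a+ MSCs (14) and 1 for Sca-1+ against CD51+CD140a+ MSCs (2). With the block and the exon-length trend, Itga8+ MSCs had 2 and 5 calls against these populations (6 and 11), and with the block and the trend of principal transcripts 2 against Sca-1+ MSCs (4). The block moved no other count of calls by over 1.5 times. DESeq2 called 1 gene between the Itga8 populations, 24 for Itga8+ MSCs against Sca-1+ MSCs and 44 relative to CD51+CD140a+ MSCs, where limma called 4 and 8 in the same order. For these and the other alternative settings of this paragraph the share of all genes called is not given here. Their counts were therefore not set against a background and are not results about the subunit genes in particular. Library totals alone gave 6 and 7 for Itga8- BLCs against Sca-1+ (10) and CD51+CD140a+ MSCs (14). Fits of only the populations compared gave 3 and 7 for Itga8+ MSCs and 22 and 23 for Itga8- BLCs. An FDR under 0.05 gave 2 and 6 for Itga8+ MSCs, 5 and 5 for Itga8- BLCs and 1 for Sca-1+ against CD51+CD140a+ MSCs. At any fold, the exon-length trend gave 10 for Itga8+ against Sca-1+ MSCs, and the trend of principal transcripts gave 9 and 12 for Itga8+ MSCs, 18 and 20 for Itga8- BLCs and 8 for Sca-1+ against CD51+CD140a+ MSCs. Without both standout libraries the calls were 1, 2 and 3 for Itga8+ MSCs against Sca-1+ and CD51+CD140a+ MSCs and Itga8- BLCs against Sca-1+ MSCs, and with the trend of principal transcripts 1 for the first, 2 for the last and 5 for Sca-1+ against CD51+CD140a+ MSCs. The medians for Itga8+ MSCs were then 0.023 and 0.12, and -0.32 against CD51+CD140a+ MSCs with that trend removed. The causes of these shifts were not tested.

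When 1 library was left out in turn, the comparisons being given as Itga8+ MSCs against Itga8- BLCs, then against Sca-1+ and against CD51+CD140a+ cells, Itga8- BLCs against the same 2, and these against each other, the calls ranged over 0 to 0, 0 to 54, 2 to 64, 3 to 27, 6 to 37 and 1 to 2. The medians ranged from -0.90 to 0.91, -0.025 to 1.54, 0.12 to 1.67, 0.29 to 1.15, 0.38 to 1.33 and -0.02 to 0.37. Leaving out Itga8+ MSC replicate 2 gave 2 calls against CD51+CD140a+ MSCs, and leaving out Itga8+ MSC replicate 3 gave 54 and 64 in the comparisons with Sca-1+ and CD51+CD140a+ MSCs. The share of all genes called in the fits that leave out a library is not given here. The counts of this paragraph were therefore not set against a background and are not results about the subunit genes in particular. With the exon-length trend the calls were 0 to 1, 1 to 20, 4 to 39, 2 to 13, 4 to 16 and 1 to 3, and the medians -0.61 to 0.68, -0.13 to 1.05, -0.052 to 1.122, 0.07 to 0.74, 0.14 to 0.88 and -0.07 to 0.30. With the trend of principal transcripts the calls were 0 to 0, 1 to 4, 5 to 7, 1 to 4, 4 to 9 and 3 to 4, and the medians -0.089 to 0.26, -0.14 to 0.15, -0.31 to 0.064, -0.11 to 0.05, -0.32 to -0.08 and -0.21 to -0.03. Where 2 libraries remained in a population, they were assumed to vary like the other groups.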
